A study of Mus musculus with 24 samples.

Results

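The guanylate-binding proteins (Gbp genes) are a family of large GTPases that interferons switch on, and the 10 Gbp genes of the mouse listed for this study, Gbp2, Gbp2b, Gbp3, Gbp4, Gbp5, Gbp6, Gbp7, Gbp8, Gbp9 and Gbp10, were followed through 24 brain tumours. They were listed by name, with earlier results of these data known. All 10 were found by symbol among the 49315 genes of the count tables. All 10 also had enough reads to be among the 22280 genes tested.

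Guanylate-binding proteins bind and hydrolyse GTP and assemble on membranes, where they attack pathogen vacuoles and bacteria and help inflammasomes form. Interferon-gamma, made by T and NK cells, switches them on through its receptor, the kinases JAK1 and JAK2, and transcription factors that include IRF1. Type I interferons act on many of the same promoters. In tumours Gbp transcripts are commonly taken as a sign of interferon signalling, since tumour cells, endothelium, microglia and infiltrating macrophages can all respond to it.

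Tumours were grown in the mouse brain from CT-vIII cells, the CT-2A glioma line carrying mouse EGFR variant III and firefly luciferase, and were infused by osmotic pump at 0.5 µl an hour for 72 hours from day 6 after implantation. D2C7-IT, an immunotoxin that binds EGFR and its variant III and carries a bacterial toxin, was given at 0.2 µg, and aCD40, an agonist antibody to the costimulatory receptor CD40 (clone FGK4.5), at 10 to 300.0 µg, the dose of each tumour not being stated. The vehicle arm received 2% albumin in phosphate-buffered saline and 100.0 µg of rat IgG2a. The 4 arms, namely vehicle, each agent alone and D2C7-IT+aCD40, were harvested when the pump was removed on day 9 (day 0 after treatment) or 3 days later (day 3), with 3 tumours in each of the 8 groups. The labels give 3 tumours a group, numbered 1 to 3 here, and p-values rest on the spread between those tumours. Every arm carried the same line, so no group shows the tissue without implanted cells.

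Each library held 24697576 to 48119840 counts assigned to genes. The samples were unsorted pieces of tissue, and in such bulk RNA fewer cells of a type and less RNA per cell cannot be told apart. Neuronal markers summed to 3071 to 6845 CPM (read counts scaled to library size and composition) in 21 tumours, against 23.9 to 160.0 CPM for Egfr and 4 genes of dividing cells. In 3 tumours, vehicle day 3 replicates 2 and 3 and aCD40 day 3 replicate 1, the same figures were 1318 to 2390 CPM and 1145 to 1386 CPM. Egfr, the gene whose variant the implanted line carries, was at 283 to 343 CPM in those 3 and at 13.1 to 50.8 CPM in the others. They were singled out after the values were seen, and results that rest on them are given with and without them.

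The 10 genes lie in a pair of clusters of near copies, which bears on what a read can say about each. On chromosome 3 (GRCm38, plus strand) Gbp5, Gbp7, Gbp3, Gbp2b and Gbp2 follow each other from chr3:142493978-142522344 to chr3:142620602-142638008. On chromosome 5 (minus strand) Gbp8, Gbp9, Gbp4, Gbp10 and Gbp6 lie between chr5:105014150-105139540 and chr5:105270702-105293698 on GRCm38, and the exons of Gbp8, Gbp9 and Gbp4 share 60 or 61 bases. Coding sequences of the chromosome 5 genes were 90.2% to 98.4% identical to each other, while the closest pairs on chromosome 3 were Gbp2 with Gbp2b at 82.5% and Gbp3 with Gbp7 at 78.3%. Gbp6 and Gbp10 were identical at 1803 of 1833 coding bases, with an unbroken identical run of 421 bases. The stretch where they differ most is shown because only reads over such bases can separate them. It covers bases 1526 to 1645 of both coding sequences (GRCm38 chr5:105274192-105274311 for Gbp6 and chr5:105218392-105218511 for Gbp10, both minus strand, exonic), and capitals mark its 12 differing bases.
Gbp6: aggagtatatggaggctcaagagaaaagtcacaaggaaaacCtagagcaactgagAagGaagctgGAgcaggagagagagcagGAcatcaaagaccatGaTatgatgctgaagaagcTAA
Gbp10: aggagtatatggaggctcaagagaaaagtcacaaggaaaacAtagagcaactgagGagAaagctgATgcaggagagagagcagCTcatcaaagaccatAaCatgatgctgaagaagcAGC

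Of all 100-base windows in its transcripts, 73.5% for Gbp10 and 64.5% for Gbp6 also occurred in another annotated gene, mainly in Gm43302, a locus that shares their exons. The counts given to Gm43302 were 0 to 16 summed over a group, and 0 for Gm43802, the locus that overlaps Gbp7. For Gbp7 the share of windows was 10.0%, for Gbp8 4.39%, and for each of the other 6 at most 1.65%. Nothing used here says how the authors' counting treated reads that match several places, so the values of Gbp6 and Gbp10 are uncertain, each as a separate gene. The heat map of coding identity sets the chromosome 5 genes apart as a block.

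**Figure D1:**
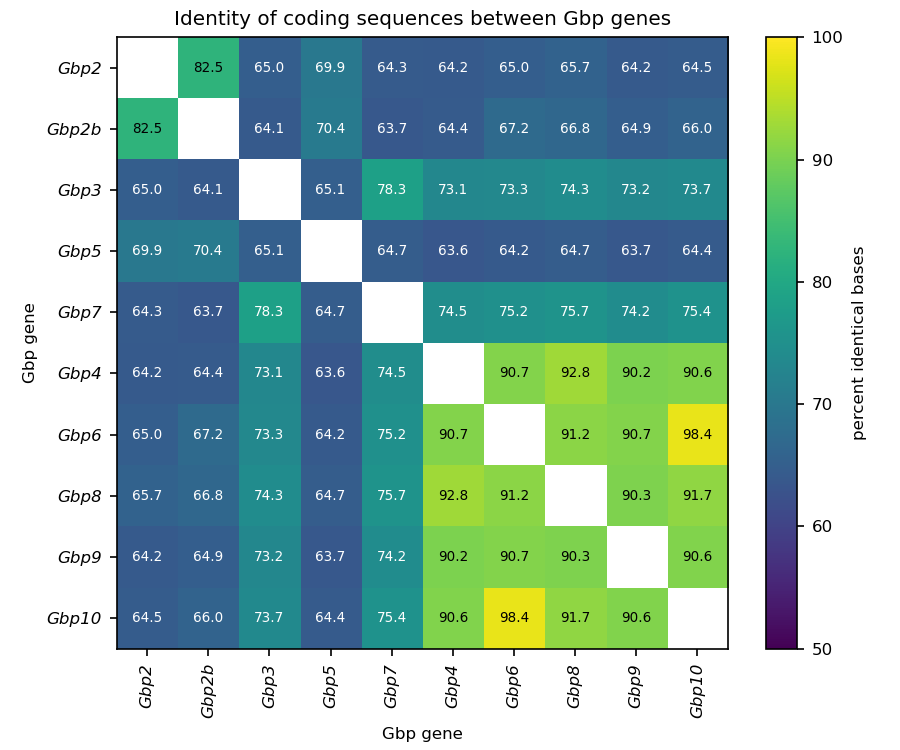
Percent of identical bases between the coding sequences of each pair of the 10 Gbp genes (both axes), with colour from 50% to 100% identity. The chromosome 5 genes (Gbp4, Gbp6, Gbp8, Gbp9, Gbp10) form a block at 90.2% or more, with Gbp6 and Gbp10 at 98.4%.

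The promoters of the chromosome 3 genes were read from RefSeq (GRCm38.p6, 250 bases before to 50 after the start site). A table entry was found for Gbp2, Gbp2b, Gbp3, Gbp5 and Gbp7, with 6 windows in all. There was none for Gbp4, Gbp6, Gbp8, Gbp9 or Gbp10, so the promoters of the chromosome 5 genes were not examined. Letters searched on both strands were TTCNNNGAA, the gamma-activated site of interferon-gamma targets, GAAANNGAAA, the interferon-stimulated response element that IRF factors bind, and GGGNNTTTCC for NF-kB. All 5 genes held the response element letters in at least 1 window, as did 3.99% of the 27025 genes with a window of that length, and 1 of the 2 windows of Gbp3 held none. Gbp5 and Gbp7 each held the gamma-activated letters at 2 places (9.55% of genes hold them at least once), and Gbp5 alone held the NF-kB letters (1.89% of genes). The promoters of Gbp5, Gbp7 and Gbp2 are shown for these differences, with the matches in capitals, at chr3:142496684-142496983, chr3:142530086-142530385 and chr3:142620413-142620712 (plus strand). Matches of different motifs did not overlap. A match is a run of letters and says nothing of binding in these tumours.
Gbp5: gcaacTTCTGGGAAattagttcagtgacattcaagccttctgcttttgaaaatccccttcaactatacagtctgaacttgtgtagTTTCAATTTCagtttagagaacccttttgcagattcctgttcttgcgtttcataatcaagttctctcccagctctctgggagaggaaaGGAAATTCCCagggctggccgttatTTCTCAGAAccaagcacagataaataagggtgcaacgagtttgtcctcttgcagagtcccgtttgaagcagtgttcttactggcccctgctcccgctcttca
Gbp7: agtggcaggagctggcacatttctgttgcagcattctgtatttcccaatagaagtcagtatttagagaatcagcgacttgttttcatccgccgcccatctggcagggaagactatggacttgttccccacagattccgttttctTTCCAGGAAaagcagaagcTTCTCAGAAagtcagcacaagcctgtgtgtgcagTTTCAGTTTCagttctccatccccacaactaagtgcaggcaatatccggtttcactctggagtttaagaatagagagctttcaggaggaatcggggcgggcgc
Gbp2: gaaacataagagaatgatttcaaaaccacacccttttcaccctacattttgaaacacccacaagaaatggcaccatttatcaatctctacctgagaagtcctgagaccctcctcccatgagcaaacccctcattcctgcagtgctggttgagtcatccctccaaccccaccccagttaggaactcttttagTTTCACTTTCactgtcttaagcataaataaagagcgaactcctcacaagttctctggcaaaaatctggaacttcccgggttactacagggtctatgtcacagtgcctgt

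Counted from the start site to the first base of a match, the Gbp5 promoter held gamma-activated letters at -245 and -52, the response element at -165 and the NF-kB letters at -77. In Gbp7 the gamma-activated letters began at -106 and -87 and the response element at -53. Gbp2 held the response element at -59.

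Levels were compared between genes as CPM per kb of exon. By its median over the 24 tumours, Gbp2, which is recruited to parasite vacuoles, came first at 32.3 CPM per kb, followed by Gbp3 at 19.1. Gbp5, a promoter of inflammasome assembly, and Gbp7 were next and level with each other at 7.44 CPM per kb. Gbp9 (4.41), Gbp6 (4.17) and Gbp4 (3.82) formed a middle step in CPM per kb, and Gbp10 (1.11) and Gbp8 (0.824) a low one. Gbp2b, the gene first named Gbp1 in mice, came last at 0.0886 CPM per kb, with 0 to 93 counts a tumour. Across tumours each gene other than Gbp2b, which reached 0, spanned a wide range, from 31.9-fold for Gbp7 to 275-fold for Gbp8 between the lowest and the highest tumour. The ranges of neighbours in this order overlapped, so the order of the medians is not one of separate levels. The places of Gbp6 and Gbp10 are also uncertain because of their shared sequence. The plot of CPM by tumour shows all 240 values.

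**Figure D2:**
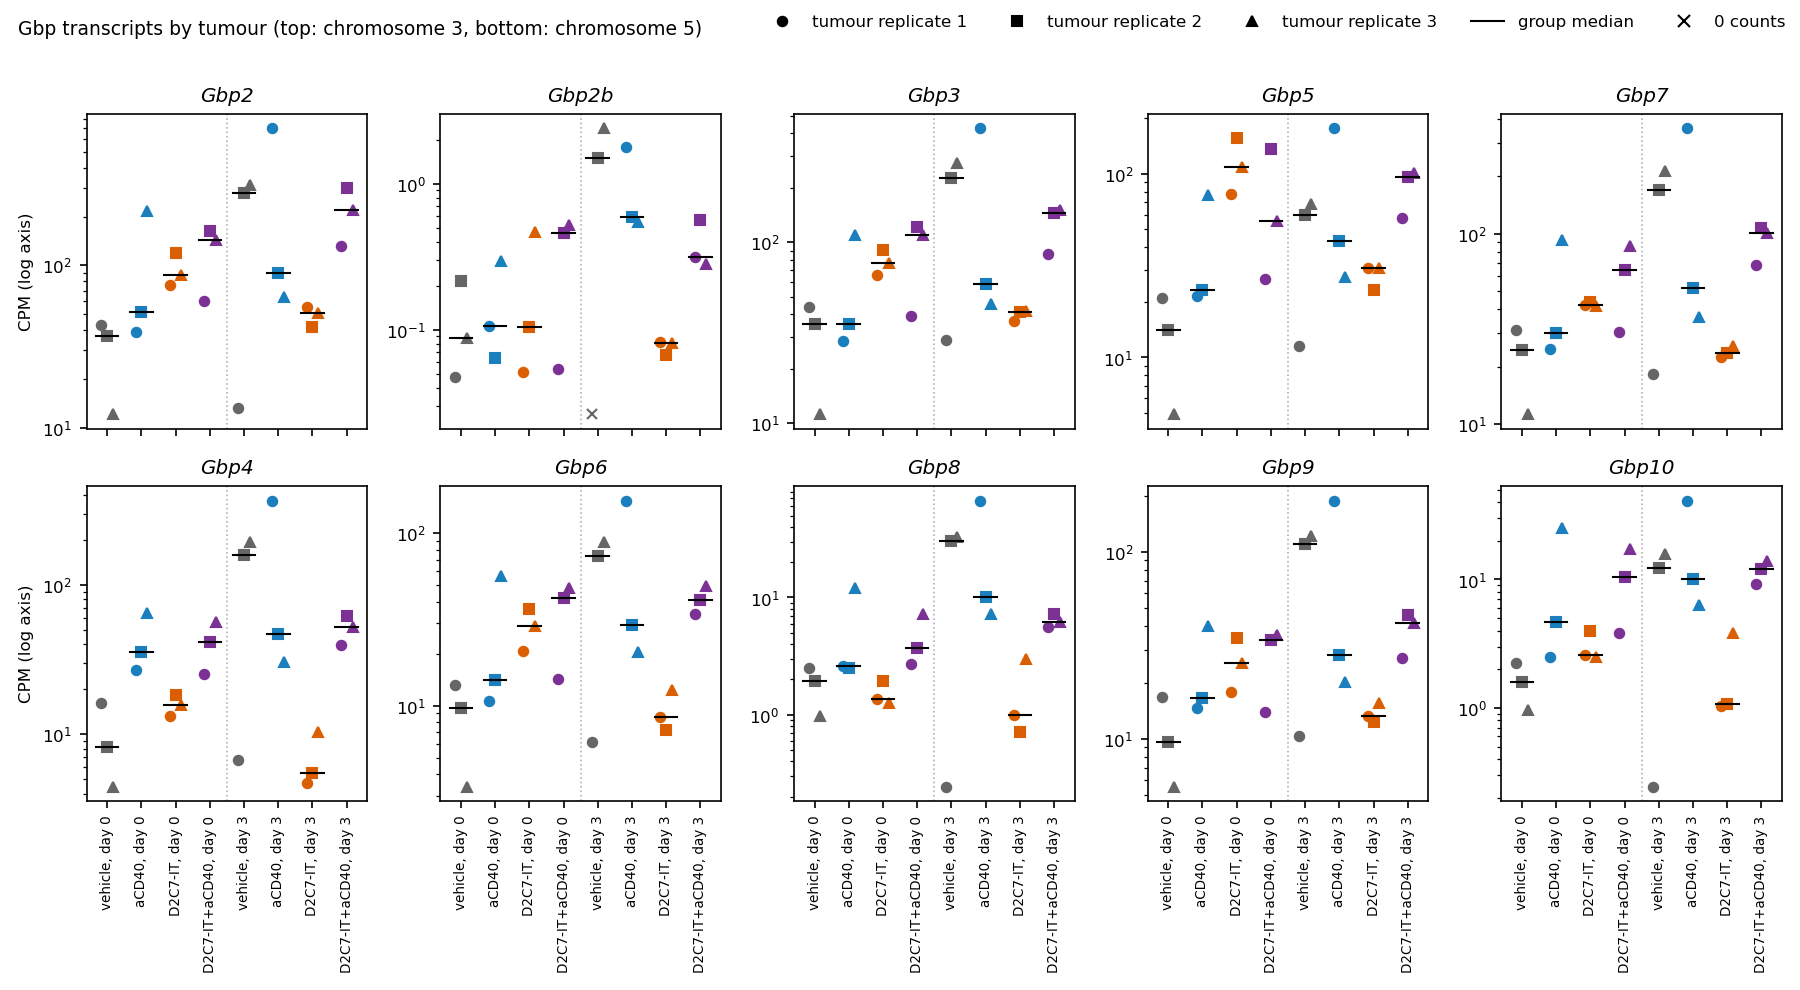
CPM (log axis) of each Gbp gene in each of the 24 tumours, by arm and day, with 1 symbol a tumour, a line at the group median and a cross at 0 counts. At day 3 all D2C7-IT+aCD40 tumours (purple) lie above all D2C7-IT tumours (orange) for each gene, and 3 tumours in the vehicle and aCD40 groups at day 3 lie far above the rest of their group.

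Adding aCD40 to D2C7-IT was, of the comparisons between pairs of groups, the one in which all 10 genes were free of overlap. At day 3 every one of the 10 Gbp genes was higher in all 3 D2C7-IT+aCD40 tumours than in any of the 3 D2C7-IT tumours, while 6.27% of the 22280 genes tested were that way. The 10 Gbp genes summed to 459.7, 819 and 737 CPM in the combination tumours and to 174, 157 and 194 CPM in the D2C7-IT tumours. None of the 3 tumours of high Egfr is in these groups.

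Gbp2 read 133, 301 and 221 CPM in the combination and 55.4, 41.9 and 50.6 CPM with D2C7-IT alone. Its log2 fold change was 2.15 ± 0.96 (standard error). The lowest combination tumour was above the highest D2C7-IT tumour, as for the other 9. For Gbp5 the values were 57.1, 96.05 and 102 CPM against 30.6, 23.4 and 30.9 CPM, a log2 fold change of 1.59 ± 0.77. Gbp4 had the widest gap, with 39.3, 61.9 and 52.4 CPM against 4.68, 5.48 and 10.3 CPM. Its log2 fold change was 2.90 ± 0.94, which is 7.48-fold. In CPM the combination tumours were the more spread, with standard deviations of 84.5 for Gbp2, 24.2 for Gbp5 and 11.4 for Gbp4. Those of the D2C7-IT tumours were 6.81, 4.26 and 3.05.

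On chromosome 3, Gbp3 read 85.9, 146 and 149.9 CPM in the combination and 36.6, 41.0 and 41.5 CPM with D2C7-IT alone. Gbp7, reported to take part in assembling the phagocyte oxidase, read 68.7, 107 and 101 CPM against 22.5, 23.7 and 25.6 CPM. Gbp2b was barely read, with 13, 23 and 11 counts against 3, 2 and 4 counts. Both better-read genes showed D2C7-IT tumours nearly level with each other. The chromosome 5 genes followed the same order. Gbp6 read 34.1, 41.0 and 49.4 CPM against 8.57, 7.23 and 12.3 CPM, and Gbp10, its near copy, 9.27, 12.2 and 14.0 CPM against 1.04, 1.08 and 3.85 CPM. Gbp9 read 26.9, 46.1 and 41.7 CPM against 13.2, 12.3 and 15.6 CPM. Gbp8 read 5.55, 7.20 and 6.18 CPM against 0.986, 0.706 and 2.96 CPM. By CPM the third D2C7-IT tumour was the highest of its group for every gene except Gbp2 and Gbp2b.

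Log2 fold changes of the 10 ran from 1.48 for Gbp9 to 2.90 for Gbp4 with a median of 2.08, where the median of all genes was -0.02. In edgeR's quasi-likelihood test 0 of the 10 passed an adjusted p of 0.05 (each adjusted p was 1.00, and 0 of 22280 genes, 0%, passed). At an unadjusted p under 0.05 the test had 5 of the 10 and 2.44% of all genes, and DESeq2 called 0 of the 10. The smallest unadjusted p in edgeR's quasi-likelihood test was 0.00610, for Gbp4, whose 95% interval was 1.07 to 4.74 in log2. When edgeR was fitted to these 6 tumours alone, 1 of the 10, Gbp7, passed, a count with no share of all genes beside it here. Across leaving out each tumour in turn the median log2 fold change stayed between 1.87 and 2.24, with 10 of 10 positive each time.

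Genes upstream of the family were measured in the same tumours. Ifng, the gene of interferon-gamma, had 23, 51 and 18 counts in the combination tumours and 1, 1 and 2 counts in the D2C7-IT tumours, with no overlap. Irf1 read 64.3, 176 and 178 CPM against 42.4, 40.9 and 32.1 CPM and did not overlap either. Log2 fold changes were 4.35 ± 1.36 for Ifng and 1.86 ± 0.91 for Irf1, and neither passed edgeR's quasi-likelihood test after adjustment. Ifng was near the limit of detection in the D2C7-IT tumours, so its fold is imprecise. Of 9 genes of the interferon-gamma pathway 6 of 9 were higher in the combination (median log2 fold change 1.02), and of 10 other interferon-gamma targets 9 of 10 (median 1.72). The immunity-related GTPases, a neighbouring family of interferon-induced GTPases that act on the same vacuoles, were higher in 8 of 8 (median 2.65). Among them Igtp had 2.79 ± 0.86, Irgm2 2.51 ± 0.76 and Tgtp2 3.24 ± 1.11 in log2. Type I interferon targets were higher in 12 of 12 (median 1.42), with Ifit3 at 1.83 ± 0.64 in log2, whereas the 5 prenylation enzymes, which attach the lipid that anchors some Gbp proteins to membranes, had 1 of 5 higher and a median of -0.12. No gene of any of these lists passed the adjusted test.

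Markers of cell types were measured beside the family. T and NK markers were higher in 7 of 8 and summed to 17.4 to 26.3 CPM in the combination against 6.11 to 23.4 CPM with D2C7-IT alone, so the groups overlapped. Klrb1c was at 0 in 1 of the 3 D2C7-IT tumours. Monocyte and macrophage markers were higher in 5 of 6 and summed to 162 to 369 CPM against 114 to 299 CPM, also overlapping. B cell markers were higher in 4 of 4 (3.14 to 9.52 against 1.78 to 3.39 CPM). The sum of microglial markers was 384 to 436 CPM against 358 to 524 CPM. Endothelial markers summed to 243.4 to 262 CPM against 202 to 242.7 CPM, with 5 of 6 higher. These sums did not overlap, but the ranges nearly met. The part of these cell types in the Gbp difference was not tested.

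**Figure D3:**
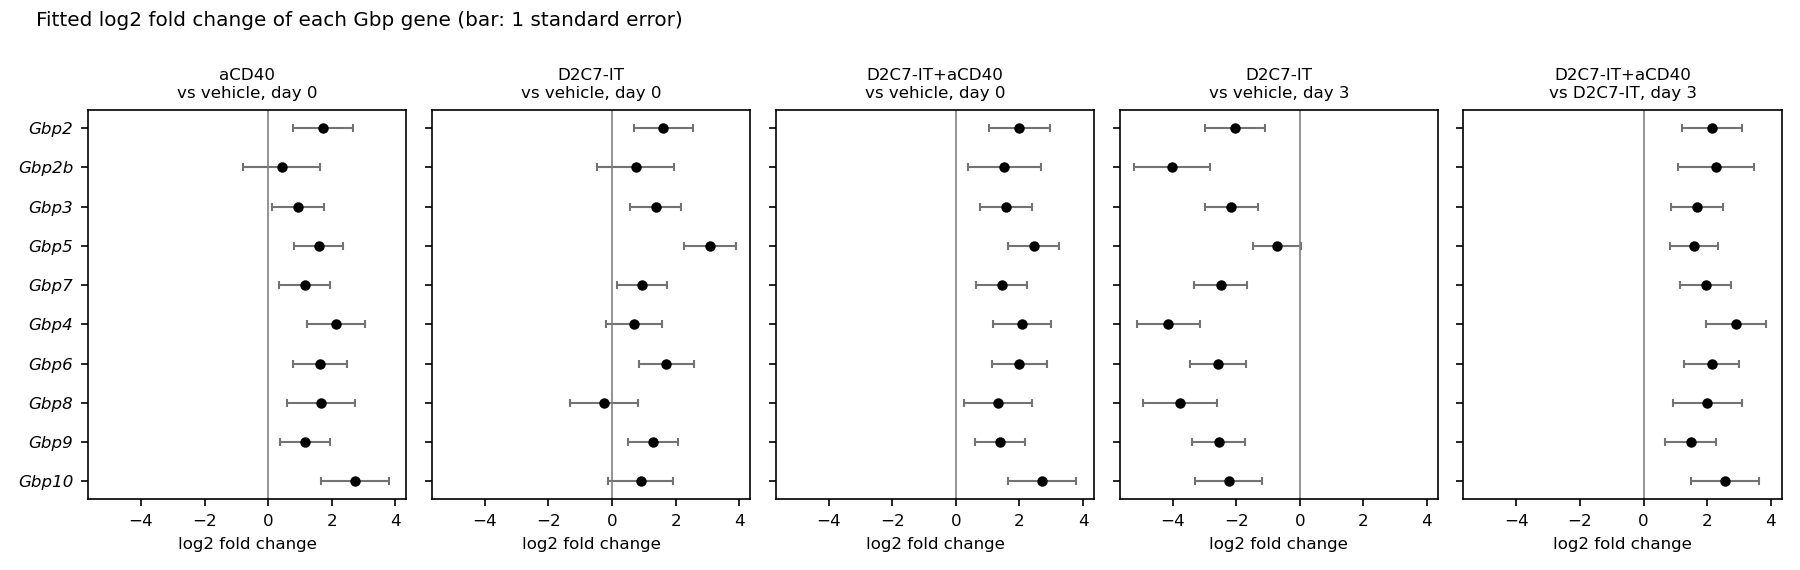
Fitted log2 fold change of each Gbp gene (points) with 1 standard error (bars) in 5 comparisons. In D2C7-IT+aCD40 against D2C7-IT at day 3 all 10 points lie between 1.48 and 2.90, and at day 0 Gbp5 stands highest in D2C7-IT against vehicle at 3.09.

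At day 0, when the pumps came out, Gbp levels in the treated arms were mostly above vehicle, but different genes led in different arms. The summed CPM of the 10 genes was 189.8, 142 and 54.7 in vehicle, 171, 213 and 693 with aCD40, 316, 507 and 388 with D2C7-IT and 217, 619 and 558 with both. The third vehicle tumour was the lowest of the 12 and the third aCD40 tumour the highest. The 3 comparisons with vehicle share its tumours, so they are not independent of each other.

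D2C7-IT alone was marked by Gbp5. This gene read 77.3, 157 and 109 CPM with D2C7-IT and 21.2, 14.2 and 4.89 CPM in vehicle, a log2 fold change of 3.09 ± 0.81, which is 8.49-fold. The lowest D2C7-IT tumour was well above the highest vehicle tumour. The edgeR quasi-likelihood test gave an unadjusted p of 0.00126 and an adjusted p of 0.301, while DESeq2 called it. Gbp4 and Gbp8 did not share this. Gbp4 read 13.2, 18.2 and 15.6 CPM with D2C7-IT and 16.3, 8.16 and 4.45 CPM in vehicle, and Gbp8 1.36, 1.95 and 1.25 CPM against 2.51, 1.93 and 0.970 CPM. For both genes the groups overlapped, with log2 fold changes of 0.69 ± 0.88 and -0.25 ± 1.06.

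Gbp2 read 75.2, 119.97 and 87.1 CPM with D2C7-IT against 42.9, 36.8 and 12.04 CPM in vehicle. Gbp3 read 65.9, 90.9 and 76.5 CPM against 43.8, 35.2 and 11.2 CPM, and Gbp7 41.9, 43.7 and 41.6 CPM against 31.0, 24.5 and 11.2 CPM. Gbp6 read 20.8, 36.5 and 28.8 CPM against 13.2, 9.65 and 3.39 CPM. In all 4 the lowest D2C7-IT tumour was above the highest vehicle tumour. With Gbp5, Gbp9 and Gbp10, 7 of the 10 were free of overlap, where 11% of all genes were higher in that way. The median log2 fold change of the 10 was 1.11 (all genes -0.01). None of the 10 passed edgeR's quasi-likelihood test, against 18 of 22280 genes (0.0808%). Before adjustment 1 of the 10 and 4.52% of all genes were below 0.05. DESeq2 called 1 of the 10 and 138 of all genes.

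Ifng counts at day 0 were 2, 4 and 0 with D2C7-IT and 5, 1 and 0 in vehicle, close to 0 in both. Ifnb1, the gene of interferon-beta, had 22, 51 and 11 counts with D2C7-IT and 1, 0 and 1 in vehicle, with no overlap and an adjusted p of 0.371 in edgeR's quasi-likelihood test. Type I interferon targets were higher in 12 of 12 (median log2 fold change 1.55), the immunity-related GTPases in 6 of 8 (median 0.24), and 0 genes of either list passed. Of the partners of Gbp5 in inflammasome formation, Nlrp3 had a log2 fold change of 2.27 ± 0.64, Casp4 2.57 ± 0.96 and Il1b 3.29 ± 1.33, none past the adjusted threshold. Neutrophil markers differed between these groups. S100a8 and S100a9 rose, with log2 fold changes of 3.76 ± 0.64 and 3.10 ± 0.56 and adjusted p of 0.0347 and 0.0447 in edgeR's quasi-likelihood test. Cxcr2 rose from 3, 0 and 0 counts in vehicle to 60, 122 and 61 counts (adjusted p 0.0447 in the same edgeR test). Of the 6 neutrophil markers 4 could be tested and all 4 were higher, summing over the list to 36.7 to 41.7 CPM against 11.9 to 31.0 CPM, with Ly6g at 0 in all 3 vehicle tumours and 1 D2C7-IT tumour. Monocyte and macrophage markers were higher in 6 of 6 and summed to 159 to 394 CPM against 33.8 to 196 CPM, which overlapped. Astrocyte markers (2197 to 3141 against 1155 to 1915 CPM) and endothelial markers (215 to 246 against 169 to 207 CPM) were higher without overlap. The part of these cells in the Gbp values was not tested.

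With aCD40 alone at day 0 the 2 leading genes were Gbp10 and Gbp4, both on chromosome 5. Gbp4 read 26.8, 35.5 and 64.4 CPM against 16.3, 8.16 and 4.45 CPM in vehicle, with a log2 fold change of 2.13 ± 0.91. Gbp10 read 2.48, 4.63 and 25.2 CPM against 2.22, 1.60 and 0.970 CPM, with 2.74 ± 1.07. In both, and in Gbp5 (21.6, 23.3 and 76.5 CPM) and Gbp8 (2.62, 2.52 and 12.1 CPM), the lowest aCD40 tumour was above the highest vehicle tumour. Those 4 of 10 compare with 3.99% of all genes. For Gbp2 the aCD40 tumours read 39.1, 51.3 and 216 CPM, which overlapped vehicle. The median over the 10 was 1.61, and 0.52 without the third aCD40 tumour, in which all 10 genes were the highest of the group. In that tumour monocyte and macrophage markers summed to 477 CPM, against 78.8 and 79.5 CPM in the others of the group and 33.8 to 196 CPM in vehicle, and T and NK markers to 23.3 CPM against 25.6 and 7.54 CPM. Egfr and the genes of dividing cells summed to 155 CPM in it against 23.9 and 33.2 CPM, microglial markers to 508 against 257 and 299 CPM, astrocyte markers to 2630.0 against 1134 and 1266 CPM, and B cell markers to 6.15 against 1.76 and 2.173 CPM. Endothelial markers were higher than in vehicle without overlap over the whole aCD40 group (243 to 294 against 169 to 207 CPM). Their part in the Gbp values was not tested. By edgeR's quasi-likelihood test 0 of the 10 and 0 of 22280 genes (0%) passed. Before adjustment 2 of the 10 and 1.36% of all genes were below 0.05, and DESeq2 called 0 of the 10.

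In the combination at day 0 Gbp5, Gbp4 and Gbp10 were all above vehicle. The lead of Gbp5 over Gbp4 was below that of every D2C7-IT tumour of that day and was clear in the second tumour only. The ratio of Gbp5 to Gbp4 counts was 1.05, 3.32 and 0.992 in the combination. It was 5.88, 8.63 and 6.96 with D2C7-IT and 1.30, 1.73 and 1.10 in vehicle. Gbp5 read 26.6, 137 and 55.5 CPM, a log2 fold change over vehicle of 2.44 ± 0.79. Gbp4 read 25.3, 41.4 and 56.0 CPM, with 2.08 ± 0.91, and Gbp10 3.83, 10.4 and 17.3 CPM, with 2.71 ± 1.07. The first tumour of the group was the lowest for all 10 genes. Gbp2 read 60.3, 164 and 144 CPM and Gbp6 14.3, 42.2 and 47.8 CPM. For Gbp2, Gbp4, Gbp5, Gbp6, Gbp8 and Gbp10 all 3 tumours were above all vehicle tumours, 6 of 10 against 5.45% of all genes. The median log2 fold change was 1.78. Endothelial markers summed to 246 to 279.5 CPM against 169 to 207 CPM in vehicle, with no overlap, and monocyte and macrophage markers to 58.7 to 142 against 33.8 to 196 CPM, overlapping. Their part in the Gbp values was not tested. After adjustment 0 of the 10 and 0 of 22280 genes (0%) passed edgeR's quasi-likelihood test. Before it 5 of the 10 and 3.03% of all genes were below 0.05, and DESeq2 called 0 of the 10. Against D2C7-IT alone, Gbp4 and Gbp8 were higher in the combination without overlap (6.07% of genes). Gbp4, Gbp8 and Gbp2b were the 3 genes whose D2C7-IT values overlapped vehicle. Against aCD40 alone 0 of the 10 were free of overlap (2.67% of genes higher, 1.92% lower), and the median of 0.28 was 1.47 without the third aCD40 tumour. In both comparisons 0 of the 10 and 0 of 22280 genes (0%) passed edgeR's quasi-likelihood test, 0 of the 10 were below 0.05 before adjustment and 0 were called by DESeq2.

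A direct comparison of the single agents at day 0 placed Gbp5 and Gbp4 on opposite sides. Gbp5 was higher with D2C7-IT than with aCD40 in every tumour (log2 fold change 1.497 ± 0.76, 8.13% of genes higher without overlap). Gbp4 (-1.43 ± 0.89) and Gbp8 (-1.92 ± 1.08) were lower in every tumour (4.97% of genes). No gene of the 10 passed edgeR's quasi-likelihood test (0 below 0.05 before adjustment), 0 of 22280 genes (0%) passed, and 0 of the 10 were called by DESeq2.

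The place of Gbp4 in the family differed between tumours given D2C7-IT alone and the rest, a pattern noticed in the values and described without a test. For each tumour the ratio of 2 genes' counts does not depend on library scaling. Gbp5 to Gbp4 ran from 2.99 to 8.63 in the 6 D2C7-IT tumours of both days and from 0.352 to 3.32 in the other 18. A single tumour of the 18, the second D2C7-IT+aCD40 tumour at day 0, reached the D2C7-IT range. Gbp2 to Gbp4 ran from 4.90 to 11.8 in the 6 and from 1.44 to 4.87 in the 18, with no overlap. As a share of the family's summed CPM per kb, Gbp4 made up 1.33% to 2.73% in the 6 and 2.90% to 9.07% in the 18. Ratios without Gbp4 overlapped. For Gbp5 to Gbp2 and Gbp3 to Gbp7, 2 and 1 of the 18 were at or above the lowest of the 6. Gbp10 to Gbp6 ran from 0.0857 to 0.312 in the 6 and from 0.0395 to 0.446 in the 18. Gbp8 to Gbp9 ran from 0.0489 to 0.190 and from 0.0236 to 0.361. By day, Gbp5 to Gbp4 was 5.88, 8.63 and 6.96 in the D2C7-IT tumours at day 0 and 6.53, 4.26 and 2.99 at day 3. It was 1.45, 1.55 and 1.94 in the combination at day 3 and 0.480, 0.922 and 0.9004 with aCD40. Gbp4 and Gbp5 lie on different chromosomes and their coding sequences were 63.6% identical.

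**Figure D4:**
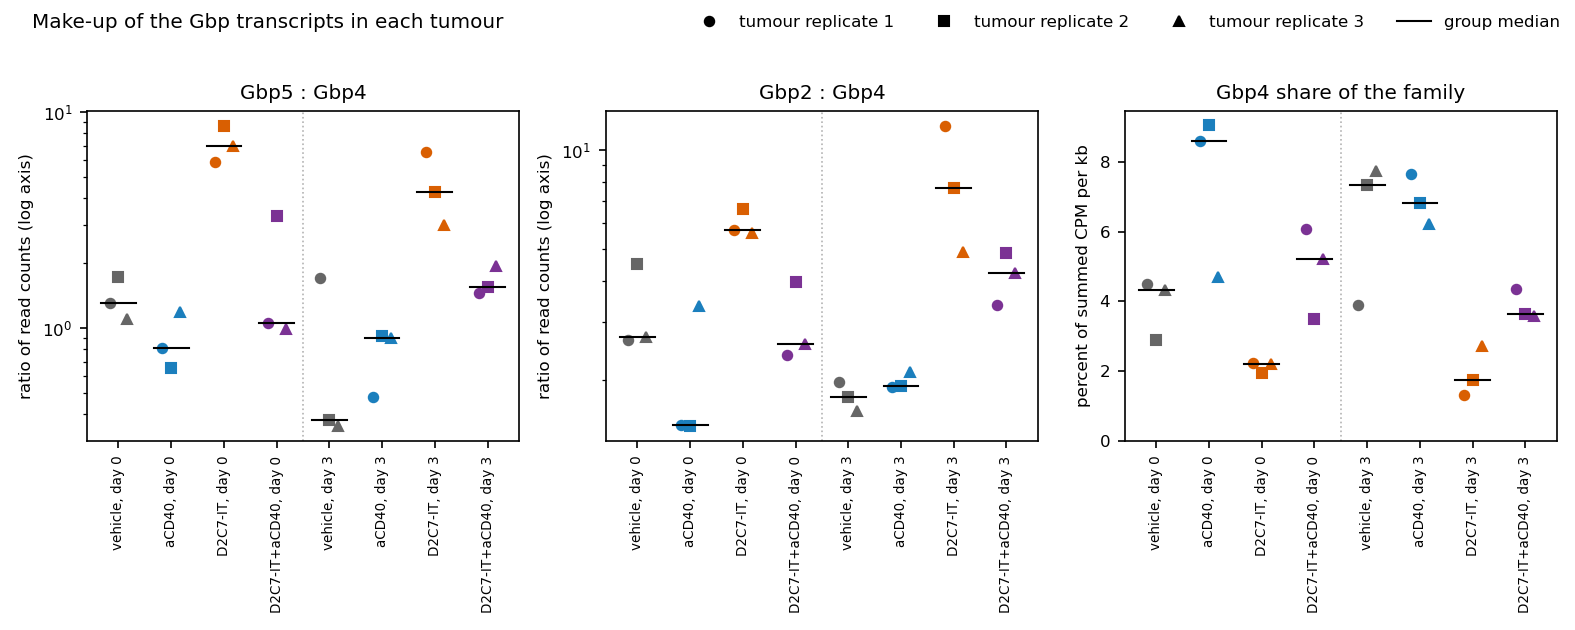
Count ratios Gbp5 to Gbp4 and Gbp2 to Gbp4 (log axes) and the share of Gbp4 in the family's summed CPM per kb (percent), with 1 symbol a tumour and a line at the group median. D2C7-IT tumours (orange) have Gbp4 shares of 1.33% to 2.73%, below all 18 others, which start at 2.90%.

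By day 3 the vehicle group itself was split, and comparisons with it rest on that split. Gbp2 read 13.3, 281 and 313 CPM in the 3 vehicle tumours, Gbp4 6.76, 158 and 195 CPM and Gbp5 11.5, 59.6 and 68.6 CPM. The first vehicle tumour was close to the day 0 vehicle tumours, and the other two, of high Egfr, were far above. With aCD40 at day 3 Gbp2 read 699, 89.9 and 63.9 CPM, Gbp4 367, 46.9 and 30.4 CPM and Gbp5 176, 43.3 and 27.3 CPM, where the first tumour, again of high Egfr, stood apart. All 10 genes summed to 1125 to 2478 CPM in those 3 tumours and to 54.7 to 819 CPM in the other 21, whose median was 258 CPM. Gbp8 read 30.6 to 67.1 CPM in the 3 against 0.244 to 12.1 CPM, with no overlap. Gbp4 (158 to 367 against 4.45 to 64.4 CPM), Gbp9 (110.4 to 188 against 5.55 to 46.1 CPM) and Gbp7 (170.2 to 357 against 11.2 to 107 CPM) did not overlap either, nor did Gbp2b, Gbp3 and Gbp6. The share of all genes that separate the 3 tumours of high Egfr in this way was not counted. Since those tumours were picked after the values were seen, their separation is described only. The other 3 Gbp genes overlapped. Gbp5 was at 59.6 to 176 against 4.89 to 157 CPM, Gbp2 at 281 to 699 against 12.04 to 301 CPM and Gbp10 at 12.4 to 41.1 against 0.244 to 25.2 CPM.

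In the 3 tumours of high Egfr, Ifng was at 2.26 to 5.65 CPM, against 0 to 1.26 CPM in the other 21. Monocyte and macrophage markers summed to 654 to 1777 against 33.8 to 477 CPM. T and NK markers summed to 46.0 to 78.4 against 2.34 to 50.1 CPM, B cell markers to 5.27 to 211 against 0.838 to 68.2 CPM, and microglial markers to 428 to 493 against 251 to 524 CPM. Egfr, Ifng and the monocyte and macrophage sum were thus higher in these 3 tumours than in any of the other 21, while the T and NK, B cell and microglial sums overlapped. The part of each in the Gbp values was not tested. The plot of the Gbp sum beside Ifng, Irf1 and Egfr shows the same 3 tumours at the top of each panel.

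**Figure D5:**
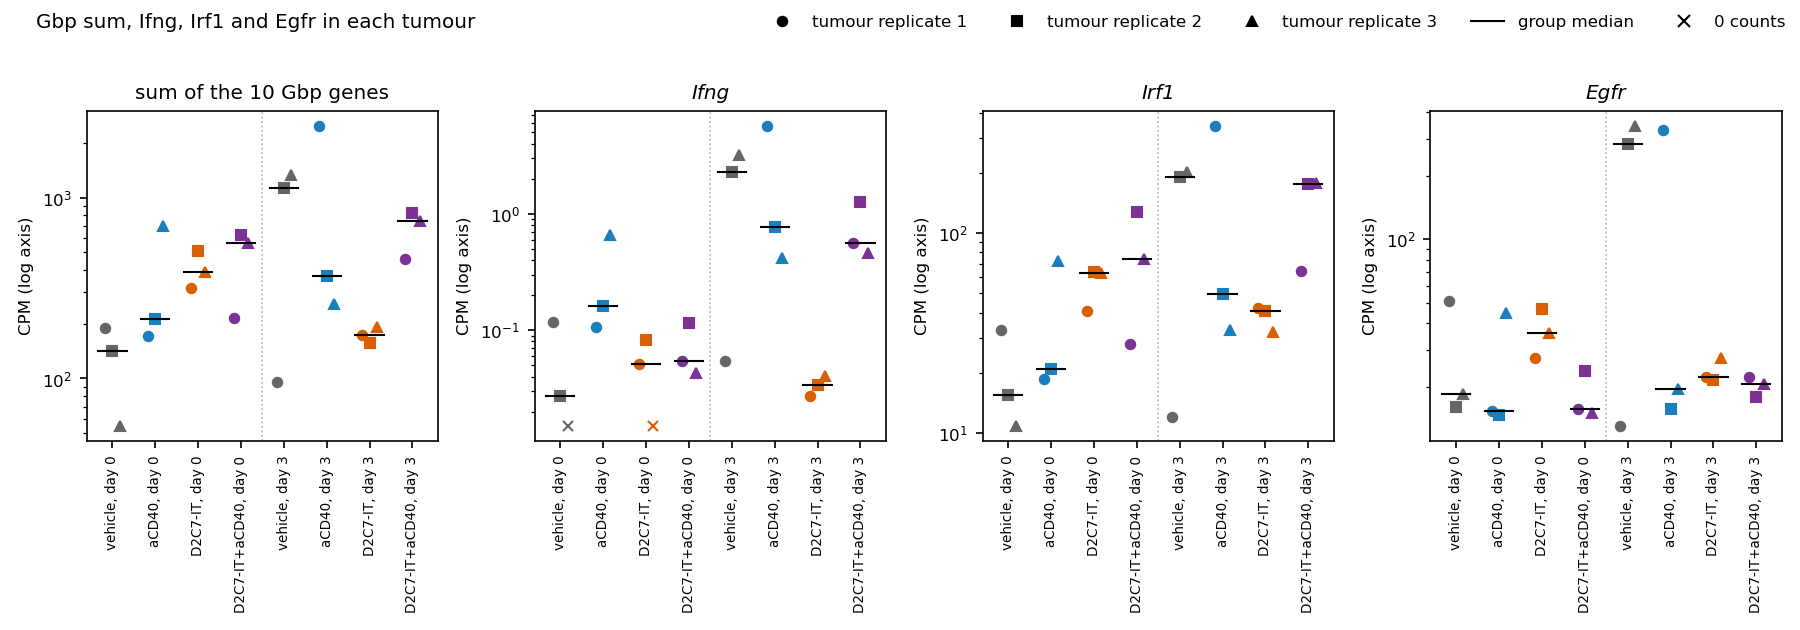
CPM (log axes) of the 10 Gbp genes summed, of Ifng, of Irf1 and of Egfr in each tumour, with 1 symbol a tumour, a line at the group median and a cross at 0 counts. Vehicle day 3 replicates 2 and 3 and aCD40 day 3 replicate 1 lie above 282 CPM for Egfr and above 1125 CPM for the Gbp sum, and the D2C7-IT+aCD40 tumours at day 3 reach 459.7 to 819 CPM with Egfr no higher than in other groups.

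Against vehicle at day 3, D2C7-IT tumours were tightly grouped at low values. Gbp2 read 55.4, 41.9 and 50.6 CPM, Gbp4 4.68, 5.48 and 10.3 CPM and Gbp5 30.6, 23.4 and 30.9 CPM, so the first vehicle tumour lay below or within them and 0 of the 10 genes were free of overlap (of all genes 5.78% were lower and 7.43% higher without overlap). The fitted log2 fold changes ran from -4.13 for Gbp4 to -0.72 for Gbp5, with a median of -2.52 (all genes 0.02). EdgeR's quasi-likelihood test passed 0 of the 10 (smallest adjusted p 0.0800, for Gbp4) and 0 of 22280 genes (0%), although 9 of the 10 and 28.2% of all genes had an unadjusted p under 0.05. DESeq2 called 7 of the 10, beside 2874 of all 22280 genes. Without the first vehicle tumour edgeR called 9 of the 10, a count with no share of all genes beside it here. Without the 3 tumours of high Egfr the median turned to 0.96, vehicle then being a single tumour whose spread is taken from the other groups.

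The position of the combination against vehicle at day 3 varied between genes. Fitted against vehicle, log2 fold changes ran from -1.75 for Gbp8 to 0.87 for Gbp5 (median -0.51), and for aCD40 from -0.41 for Gbp2b to 1.02 for Gbp10 (median 0.29). The groups overlapped for all 10 genes in both, while 8.06% of genes were higher and 7.45% lower without overlap for the combination, and 1.58% and 1.13% for aCD40. No member passed edgeR's quasi-likelihood test in either (0 of 10 below 0.05 before adjustment), while 9 of 22280 genes (0.0404%) passed for the combination and 0 (0%) for aCD40, and DESeq2 called 0 of the 10 in both. Without the 3 tumours of high Egfr these medians were 2.93 and 2.28, and that of aCD40 was -1.34 without its own tumour of high Egfr alone. The difference between D2C7-IT and aCD40 at day 3 was lower without overlap for 9 of the 10 (6.59% of genes), with Gbp5 the exception. The median log2 fold change of this comparison was -2.74, and -1.15 without the aCD40 tumour of high Egfr. In edgeR's quasi-likelihood test 0 of the 10 passed (smallest adjusted p 0.076), against 31 of 22280 genes (0.139%). The unadjusted p of that test was under 0.05 for 9 of the 10 and 17.7% of all genes. DESeq2 called 7 of the 10 and 853 of all genes. Gbp8 was the one member lower in the combination than with aCD40 without overlap (4.78% of genes), at 5.55, 7.20 and 6.18 CPM against 67.1, 10.1 and 7.25 CPM. The median for that comparison was -0.71, with 1 of 10 genes higher, and 0.70 with 8 of 10 higher without the aCD40 tumour of high Egfr. For this contrast 0 of the 10 and 0 of 22280 genes (0%) passed edgeR's quasi-likelihood test. Before adjustment 0 of the 10 and 11.1% of all genes were below 0.05, and DESeq2 called 0 of the 10.

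Averaged over tumours with and without aCD40, the effect of D2C7-IT at day 3 was the one of the 25 contrasts fitted in which members passed edgeR's quasi-likelihood test. Gbp4 fell (-2.83 ± 0.66 in log2, adjusted p 0.0172), as did Gbp8 (-2.96 ± 0.79, adjusted p 0.0224), Gbp2b (-2.67 ± 0.79, adjusted p 0.0295) and Gbp9 (-1.80 ± 0.56, adjusted p 0.0361). These 4 of 10 stand beside 4052 of 22280 genes called (18.2%), and 13.1% of all genes were called lower. DESeq2 called 6 of the 10 and 5539 of all genes. Gbp5 was the gene with the smallest difference, at -0.34 ± 0.53. The 3 tumours of high Egfr were all on the side without D2C7-IT. Leaving out 1 tumour at a time gave 0 to 9 called, with 0 without any of vehicle replicate 3, aCD40 replicate 1, D2C7-IT replicates 1 and 2, and D2C7-IT+aCD40 replicate 2. Without all 3 tumours of high Egfr all 10 log2 fold changes were positive with a median of 1.00. Vehicle was then a single tumour, replicate 1, and aCD40 was left with replicates 2 and 3.

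Between days the arms differed in direction of the fitted values. In vehicle the 10 genes had positive log2 fold changes from day 0 to day 3 with a median of 2.70. In D2C7-IT 9 of the 10 were negative with a median of -0.95, and Gbp8 was at 0.04 ± 1.06. Vehicle tumours of the 2 days overlapped for all 10 genes (of all genes 6.49% were higher and 6.65% lower without overlap), and the vehicle median was -0.53 without the high-Egfr tumours. In edgeR's quasi-likelihood test 0 of the 10 and 0 of 22280 genes (0%) passed for vehicle. The unadjusted p of that test was under 0.05 for 10 of the 10 and 30.2% of all genes. DESeq2 called 8 of the 10 and 2479 of all genes. In D2C7-IT, 7 of the 10 (Gbp2, Gbp3, Gbp4, Gbp5, Gbp6, Gbp7 and Gbp9) were lower at day 3 in every tumour, against 6.36% of genes. Gbp5, for one, went from 77.3, 157 and 109 CPM to 30.6, 23.4 and 30.9 CPM (log2 fold change -2.01 ± 0.78). For D2C7-IT 0 of the 10 passed edgeR's quasi-likelihood test, against 1 of 22280 genes (0.00449%). Before adjustment 1 of the 10 and 3.51% of all genes were below 0.05, and DESeq2 called 0 of the 10.

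In the combination the log2 fold changes between days ran from 0.16 to 0.83 (median 0.39, and 0.10 with 6 of 10 positive without the first tumour of day 0), with overlap for all 10 genes (of all genes 7.07% were higher and 6.49% lower without overlap). For Gbp4 the 2 days read 25.3, 41.4 and 56.0 and 39.3, 61.9 and 52.4 CPM, and its interval of difference was -1.38 to 2.03 in log2. In edgeR's quasi-likelihood test 0 of the 10 and 0 of 22280 genes (0%) passed for the combination, with 0 of the 10 below 0.05 before adjustment and 0 called by DESeq2. For aCD40 the median was 1.60, and -0.14 without the tumour of high Egfr. Only Gbp2b was higher at day 3 without overlap in that arm (63, 20 and 21 against 4, 2 and 13 counts, 5.05% of genes). In that arm 0 of the 10 passed edgeR's quasi-likelihood test, against 13 of 22280 genes (0.0583%). Before adjustment 3 of the 10 and 11.6% of all genes were below 0.05, and DESeq2 called 0 of the 10. The change of the D2C7-IT effect between days had a median of -3.73, and -0.60 without the 3 tumours of high Egfr. In edgeR's quasi-likelihood test 0 of the 10 (smallest adjusted p 0.276) and 0 of 22280 genes (0%) passed. The unadjusted p of that test was under 0.05 for 10 of the 10 and 17.6% of all genes. DESeq2 called 2 of the 10 and 92 of all genes. The corresponding change of the aCD40 effect had a median of -1.22, with 0 of the 10 and 1.22% of all genes below 0.05 before adjustment. That of the combination effect was -2.41, with 3 of the 10 and 8.05% of all genes. Neither had a member or any of 22280 genes (0%) past edgeR's quasi-likelihood test or a member called by DESeq2. Without the 3 tumours these medians were 0.40 and 0.90, and the aCD40 median was -0.11 without the third aCD40 tumour of day 0.

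Tests of whether the effects of D2C7-IT and aCD40 added up gave medians of -0.84 at day 0 and 1.67 at day 3, with 0 of the 10 past edgeR's quasi-likelihood test, 0 at an unadjusted p under 0.05 and 0 called by DESeq2 on either day, and 0 of 22280 genes (0%) passed. Without the 3 tumours of high Egfr the day 3 median was 0.05, and without the third aCD40 tumour of day 0 the day 0 median was -0.02 with 5 of 10 positive. Averaged over D2C7-IT, the aCD40 effect had medians of 0.89 at day 0 and 1.20 at day 3. In the fit to all tumours 10 of 10 genes were positive on both days. On each day 3 of 10 had an unadjusted p under 0.05, beside 2.76% of all genes at day 0 and 3.12% at day 3. After adjustment 0 of the 10 passed edgeR's quasi-likelihood test. Background calls were 0 of 22280 genes (0%) at day 0 and 2 (0.00898%) at day 3, and DESeq2 called 0 of the 10 on both days. The day 0 median was 0.39 without the third aCD40 tumour. That of day 3 was 0.44, with 8 of 10 positive, without the aCD40 tumour of high Egfr and 2.23 without all 3 such tumours. The D2C7-IT effect at day 0, averaged in the same way, had a median of 0.84 (1.30 without the third aCD40 tumour). For it 0 of the 10 were called by edgeR's quasi-likelihood test against 7 of 22280 genes (0.0314%). DESeq2 called 1 of the 10 and 96 of all genes.

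Members varied together across the 24 tumours, which share library depth and tissue make-up as sources of variation. Pearson's r of log2 CPM between pairs ran from 0.544 (Gbp5 with Gbp8, rho 0.485) to 0.978 (Gbp7 with Gbp9, rho 0.978). Gbp3 with Gbp7 stood at 0.976, and the lowest values all involved Gbp5 or Gbp2b. Gbp5 with Gbp4 was at 0.640, and at 0.854 after the group means were subtracted. Outside the family, the 8 genes whose log2 CPM was most like the mean of the 10 Gbp genes over the 24 tumours, of 14484 genes, were Tap2 (r 0.981, rho 0.979), Tap1 (0.978, 0.973), Ifi47 (0.977, 0.975), Psmb8 (0.973, 0.959), Psmb9 (0.970, 0.950), Irgm1 (0.968, 0.939), Iigp1 (0.966, 0.940) and Tgtp1 (0.965, 0.958). Tap1 and Tap2 carry peptides to MHC class I, Psmb8 and Psmb9 are immunoproteasome subunits, and the other 4 are immunity-related GTPases. After the group means were subtracted the 8 were Ifi47 (0.989), H2-K1 (0.989), H2-Q4 (0.987), Psmb8 (0.986), B2m (0.983), H2-Q7 (0.983), Iigp1 (0.982) and H2-Q6 (0.982). Irf1 was at 0.923 and Ifng at 0.847. Without the 3 tumours of high Egfr (n = 21) these were 0.870 and 0.694, and Egfr itself went from 0.684 to 0.221.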

How the data were processed

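RNA-seq of 24 whole tumours was deposited by the authors as raw counts per Ensembl gene in 6 tables, 12 of whose 36 columns repeat another and hold the same values. The submitters' processing notes list bcl2fastq 2.17, Trimmomatic 0.36, STAR 2.5.2b and Subread 1.5.2 with featureCounts, and per the labels' protocols mRNA was selected with oligo(dT) and libraries made with NEBNext Ultra. No source used here gives the annotation release, strand setting or treatment of reads matching several places. Symbols came from GENCODE M21 (GRCm38), which named 49056 of 49315 genes.

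Genes were tested with edgeR 4.0.16 in R 4.3.3 (TMM scaling, its default filter on low counts, robust quasi-likelihood fit over all 24 tumours with 1 mean a group, 16 residual degrees of freedom, Benjamini-Hochberg over 22280 genes, threshold 0.05). The common coefficient of biological variation was 0.41. DESeq2 1.42.0 was an alternative, as were its size factors in edgeR, no filter, fits to the compared groups alone, a term for the replicate number, leaving out each tumour, and, chosen after seeing the data, leaving out the 3 tumours of high Egfr. Fitted intervals are the log2 fold change ± 1.96 standard errors. The fit was tested on simulated data. CPM are counts-per-million of the TMM-scaled library, and CPM per kb divides by the union of exons. Sequences were compared with Biopython 1.88.

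The 10 members, the gene lists and the markers were chosen with earlier results of these data known. All members entered every comparison, and where values are not given for each, the rest are covered by counts and ranges. Of the pathway lists, Ifng and Irf1 are named (1 other gene of the rule is not reported here), plus up to 3 genes of smallest p a list, and Ifnb1 falls under that rule. In D2C7-IT+aCD40 against D2C7-IT at day 3 the lists not printed there (Mx GTPases, astrocyte, oligodendrocyte, pyroptosis partners) had 0 genes called.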

Additional observations from a re-analysis of the deposited data

How the results depend on the processing

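The comparison of D2C7-IT+aCD40 with D2C7-IT at day 3 kept all 10 log2 fold changes positive in every alternative run. Its 1 change of call was Gbp7 in the fit to those groups alone (1 of 10 called). Calls over all genes are not given for fits to the compared groups alone, so their counts have no background beside them. The same kind of fit called 1 of 10 in D2C7-IT at day 3 against day 0 and 0 for the averaged D2C7-IT effect at day 3, which also had 0 without the 3 tumours of high Egfr. DESeq2 called 1 of 10 in D2C7-IT against vehicle at day 0, 7 at day 3, 7 in D2C7-IT against aCD40 at day 3, 8 in vehicle between days, 1 for the averaged D2C7-IT effect at day 0, 6 for that at day 3 and 2 for its change between days. Its calls over all genes are given with each of these comparisons above.

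Leaving out 1 tumour at a time gave 0 to 9 calls in D2C7-IT against vehicle at day 3, 0 to 2 in D2C7-IT+aCD40 against vehicle at day 3, 0 to 10 in vehicle between days and 0 to 10 for the change of the D2C7-IT effect, the highest count each time without vehicle day 3 replicate 1. For D2C7-IT against aCD40 at day 3 it gave 0 to 1, the 1 without aCD40 day 3 replicate 3. For the averaged D2C7-IT effect at day 3 the range was 0 to 9, with 9 without vehicle day 3 replicate 1 and 0 without any of vehicle day 3 replicate 3, aCD40 day 3 replicate 1, D2C7-IT day 3 replicates 1 and 2, and D2C7-IT+aCD40 day 3 replicate 2. Where a group fell to 1 tumour, its spread was taken from the others. Calls over all genes are not given for the fits that left out 1 tumour, so these counts have no background beside them.

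Single genes turned direction in several comparisons. Without the 3 tumours of high Egfr, vehicle at day 3 was replicate 1 alone. That tumour had 0 counts of Gbp2b and 9 each of Gbp8 and Gbp10, so the values of these genes in that fit are imprecise. Without the 3 tumours of high Egfr the log2 fold changes of D2C7-IT against vehicle were Gbp2 1.91, Gbp2b 4.61, Gbp3 0.47, Gbp4 0.035, Gbp5 1.31, Gbp6 0.62, Gbp7 0.40, Gbp8 2.68, Gbp9 0.42 and Gbp10 3.04. Those of D2C7-IT+aCD40 against vehicle that turned were Gbp2b 6.91, Gbp3 2.171, Gbp4 2.95, Gbp6 2.78, Gbp7 2.36, Gbp8 4.70 and Gbp9 1.91. Those of aCD40 were Gbp2b 7.45, Gbp3 0.87 and Gbp9 1.24, and those of the averaged D2C7-IT effect Gbp2 1.71, Gbp2b 2.04, Gbp3 0.89, Gbp4 0.23, Gbp5 1.29, Gbp6 0.68, Gbp7 0.73, Gbp8 1.12, Gbp9 0.55 and Gbp10 1.79. For aCD40 against vehicle at day 3, near 0 in the fit reported, Gbp3 turned to 0.011 under DESeq2's size factors, 0.012 under DESeq2 and 0.018 in the fit to the compared groups. The ranges that crossed 0 when 1 tumour was left out were, for aCD40 against vehicle at day 3, Gbp2 -1.39 to 0.96, Gbp2b -1.17 to 0.36, Gbp3 -1.75 to 0.45, Gbp4 -1.62 to 0.83, Gbp5 -0.39 to 1.24, Gbp6 -1.16 to 0.75, Gbp7 -1.59 to 0.64, Gbp8 -1.28 to 0.86, Gbp9 -1.74 to 0.42 and Gbp10 -0.20 to 1.58. For D2C7-IT+aCD40 against vehicle at day 3 they were Gbp2 -0.44 to 0.55, Gbp6 -0.97 to 0.033 and Gbp10 -0.25 to 0.88. At day 0 they were Gbp2b -0.56 to 1.60 and Gbp8 -0.54 to 0.062 with D2C7-IT and Gbp2b -0.44 to 1.28 with aCD40, and for the averaged D2C7-IT effect at day 3 Gbp5 -0.57 to 0.28.

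Replicate numbers do not pair tumours: over 84 same-numbered pairs the correlation of deviations ran from -0.913 to 0.509 with a median of -0.02. With the replicate block, 3 of 10 were called for the averaged D2C7-IT effect at day 3, no other count changed, and the aCD40 values against vehicle at day 3 turned to Gbp2b 0.28, Gbp3 0.17 and Gbp9 0.089.

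With 3 tumours a group the standard errors, from 0.53 in log2 for averaged effects to 1.69 for changes between days, limit what can be called. Gbp2b, at 0 to 93 counts, is limited by depth, and Gbp6 and Gbp10 by their shared sequence. Egfr, interferon-gamma and monocyte and macrophage markers were highest in the same 3 tumours and cannot be told apart there.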
